A study of Mus musculus with 7 samples.

Results

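The 38 genes described here mark dermal fibroblasts and their subtypes. They were taken by gene name from a table of 25322 genes, and all 38 were found once in it and passed the filter on low values. By role they are 14 general fibroblast genes, 13 genes of adventitial fibroblasts, 4 of papillary and 5 of reticular fibroblasts, 1 of the dermal papilla (Corin) and 1 of activated fibroblasts (Lrrc15). Skin cells of mice that expressed tdTomato were sorted on day 36 and profiled by bulk RNA-seq, with 4 libraries from Zfp750 knockouts (Zfp750_KO) and 3 from controls. Per the labels, the knockouts were fl/fl at Zfp750 (written ZNF750), and of the controls 2 were wt/fl and 1 was wt/wt. All mice carried Lrig1-CreER or Lrig1-CreERT2 (+/-), in which Lrig1, a gene of the upper hair follicle, drives a tamoxifen-inducible Cre recombinase. Every pup received 4-hydroxytamoxifen over days 4 to 7 or days 5 to 8 after birth, and Rosa26 was +/- except in 1 knockout, given as -/-. The control group thus mixes 2 Zfp750 genotypes and shares the Cre and the drug with the knockouts. Sorting relied on the reporter alone, so no label says that the cells are fibroblasts.

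Fibroblasts of the dermis make the collagen and elastic matrix of the skin and differ by depth. Papillary fibroblasts lie under the epidermis, next to Wnt signals, and reticular fibroblasts fill the deep dermis. Adventitial fibroblasts surround vessels and populate the fascia; in mice they carry Pi16, Dpp4, Cd34 and Ly6a on their surface and are regarded as a reserve from which other fibroblasts can arise. Activated fibroblasts of wounds and tumours turn on Lrrc15 and contractile genes.

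In the Zfp750_KO libraries the adventitial genes were low together, while 12 of the 14 general fibroblast genes overlapped between the groups over all libraries. Of the 13 adventitial members, 10 were lower in every Zfp750_KO library than in any control, where 3.91% of the 18141 genes tested were. Over all 38 members 14 were lower and 1, Trps1, was higher without overlap, beside 3.19% of all genes higher and 7.1% in either direction. Lrrc15 stood out in the other direction, with a group mean 17.2 times that of controls but a very uneven level.

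The libraries are named by the short names of the table's columns: 1M, 2M, 3F and 6F for Zfp750_KO and 4F, 4M and 7F for control. Values are given in that order and are the deposited normalized counts, which carry no correction for gene length. Depth, estimated from the size of the smallest step in each column, came to 9.55 to 15.2 M reads in Zfp750_KO and 9.09 to 17.1 M in control. Nothing in the labels ties a library to an animal of its own, so the spread behind each p-value is that among libraries and may be technical. Zfp750 itself was at 48.9, 45.4, 10.1 and 29.6 in Zfp750_KO, against 335, 51.2 and 61.9 in control. Every Zfp750_KO value thus lay below every control value, but close to control 4M and 7F in 1M and 2M.

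Leukocyte RNA split the libraries within both groups. The macrophage score, the mean log2 level of 24 macrophage genes, was 7.56, 7.18, 11.3 and 11.0 in Zfp750_KO and 5.93, 10.2 and 10.4 in control. Thus 1M, 2M and control 4F stand apart from the other 4. Keratinocytes, whose follicle compartment the Cre targets, gave 366 to 2880.0 per M of the library total over 12 markers in Zfp750_KO and 342 to 3040.0 per M in control. The 16 stromal genes set aside as a reference, mostly collagens and outside the 38, took 13.5%, 14.7%, 2.17% and 5.80% of all counts in Zfp750_KO and 19.8%, 16.6% and 9.86% in control. The stromal score, their mean log2 level, differed by -0.40 (two-sided exact permutation over 35 splits, p = 0.657), and the macrophage score by 0.43 (p = 0.857, same exact test). In such bulk samples fewer cells of a type and less RNA per cell cannot be told apart. Control 4M held both Xist (3318) and the Y-linked Ddx3y (810), whereas 1M and 2M held Ddx3y at 950.3 and 979 with Xist at 6.24 and 0.966. Ddx3y was at 0 in 3F and 6F, with Xist at 55719 and 47460.5. Within Zfp750_KO the split by sex is thus the split by macrophage score, and the effects of sex and score cannot be told apart there. Control 4F, of low score, held Xist at 23423 and Ddx3y at 0. Whether control 4M mixes RNA of more than 1 animal was not tested, and results that change without it are marked.

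Because of this split each gene was tested in 2 fits over all genes. With group as the single term in limma, no member passed an adjusted p of 0.05, and neither did any of the 18141 genes (0%). At an unadjusted p under 0.05 there were 17 of the 38 members, against 1058 genes or 5.83% in all, and the lowest adjusted p of a member was 0.117, for Sema3c. The second fit held the macrophage score as a covariate. There 14 members fell and 2 rose, while of all genes 3.46% were called, 2.12% lower and 1.34% higher. The median difference over the 38 members was -0.55 on the log2(value + 11.9) scale, beside 0.02 over all genes. This scale understates the change of low genes. The differences, standard errors (SE) and adjusted p-values below come from this second limma fit unless stated otherwise.

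The second fit depends on single libraries. Of the 13 adventitial members it called 10 with all libraries, 5 without control 4M and 6 without control 7F. Over the 38 it called 16 members with all libraries, 7 without control 4M, 8 without control 7F, 10 without Zfp750_KO 2M and 27 without control 4F. The share of all genes called moved with these counts, at 0.827% without control 4M, 0.994% without control 7F, 1.83% without Zfp750_KO 2M and 8.65% without control 4F. Fap, Cd34, Ly6c1, Scara5, Sema3c, Anxa3 and Lrrc15 stayed past the threshold whichever 1 library was left out. In the 4 libraries with the higher macrophage score alone (3F and 6F against 4M and 7F), chosen after seeing the data, limma called 29 members lower and 3 higher, beside 7.02% and 5.14% of 17214 genes. There the stromal reference also lay lower, in 16 of 16 genes, with a median of -1.29, so lower levels of stromal RNA in general move with those calls. Leukocyte genes moved too, with 17 of the 24 genes of the macrophage score and 7 of 10 T cell markers called higher in Zfp750_KO. The part of either in the calls was not tested.

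**Figure D1:**
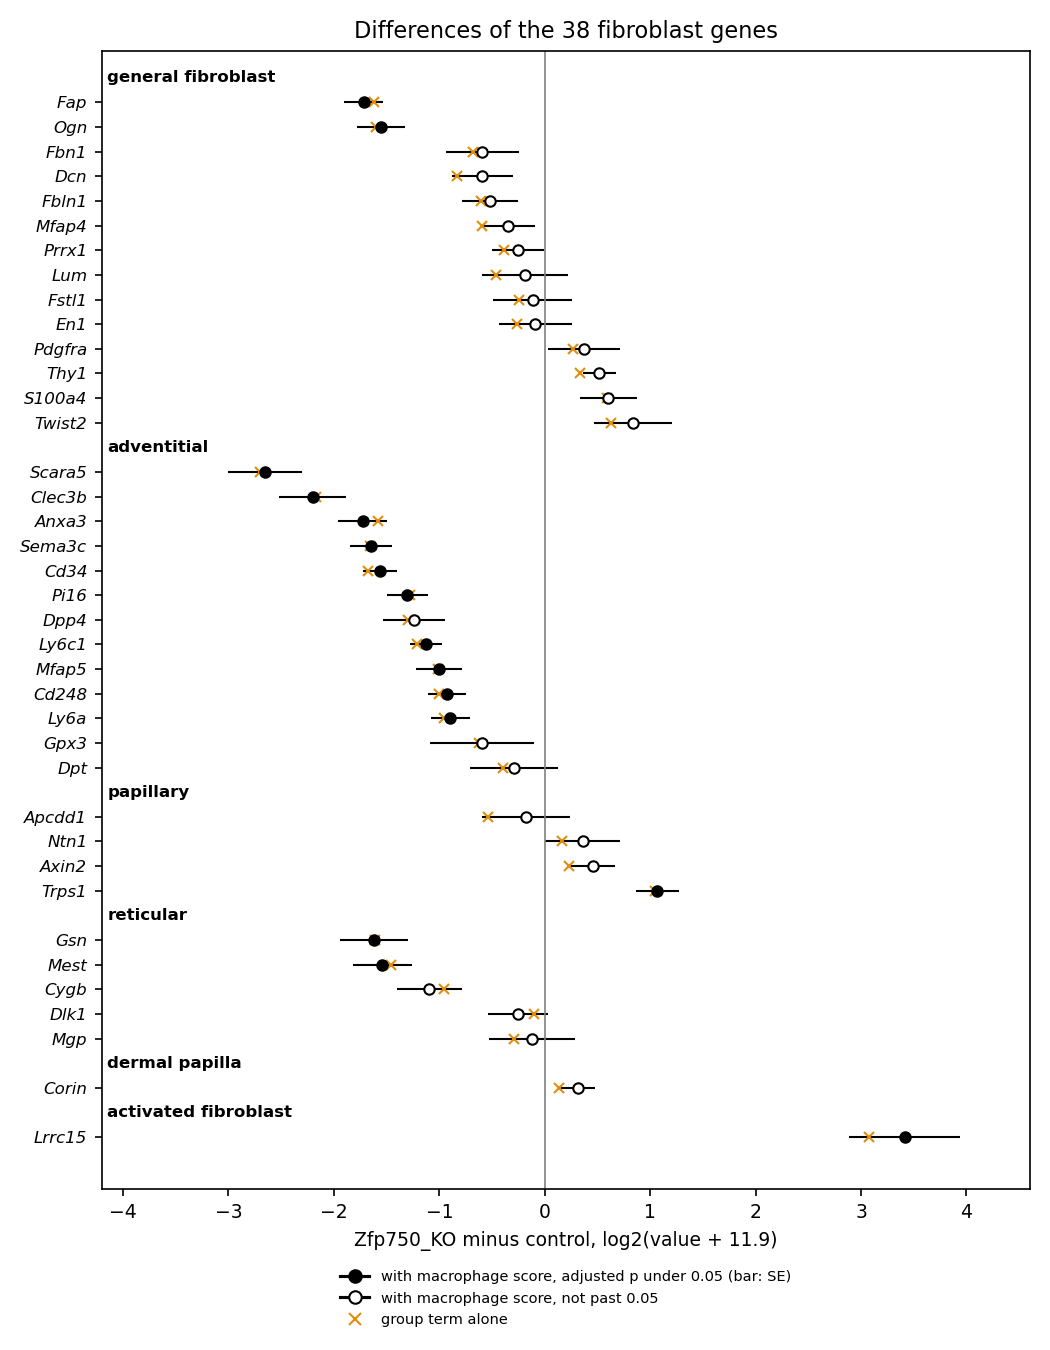
Difference between Zfp750_KO and control (x axis, log2(value + 11.9)) for each of the 38 genes by role, from the limma fit with the macrophage score (circles with SE, filled where the adjusted p is under 0.05) and with the group alone (crosses). All 13 adventitial genes lie left of 0 and 10 of them are filled, whereas the general genes spread on both sides with 2 filled.

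The 3 promoter sequences printed here were chosen because they belong to members that passed the test and show 3 different layouts. RefSeq promoters (build GRCm38.p6) were matched by symbol for 22 of the 38 members, and the 250 bases before the first listed start were searched on both strands for 4 motifs. Capitals mark the motif letters found. Sema3c, which fell, has repeated GC boxes (chr5:17574566-17574815, + strand). Ly6c1, which also fell, has a TATAAA (chr15:75048838-75049087, - strand). Lrrc15, which rose, has a GC box and an AP-1 motif (chr16:30283255-30283504, - strand).
Sema3c: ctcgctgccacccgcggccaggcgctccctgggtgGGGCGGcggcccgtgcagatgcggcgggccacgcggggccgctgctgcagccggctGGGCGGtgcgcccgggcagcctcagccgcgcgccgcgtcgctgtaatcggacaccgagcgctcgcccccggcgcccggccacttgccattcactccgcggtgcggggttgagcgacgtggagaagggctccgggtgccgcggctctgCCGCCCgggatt
Ly6c1: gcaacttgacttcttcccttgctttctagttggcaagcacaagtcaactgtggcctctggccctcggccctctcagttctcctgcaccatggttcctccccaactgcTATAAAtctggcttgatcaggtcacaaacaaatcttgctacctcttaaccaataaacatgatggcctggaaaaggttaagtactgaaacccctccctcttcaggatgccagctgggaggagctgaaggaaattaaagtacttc
Lrrc15: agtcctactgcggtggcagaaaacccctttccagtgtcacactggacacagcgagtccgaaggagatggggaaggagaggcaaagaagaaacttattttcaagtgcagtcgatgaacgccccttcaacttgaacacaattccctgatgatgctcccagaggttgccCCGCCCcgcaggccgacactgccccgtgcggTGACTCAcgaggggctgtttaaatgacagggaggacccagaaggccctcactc
The GC box (GGGCGG) was present in 2 of the 7 adventitial promoters matched and in 32.9% of all 27025 promoters. TATAAA was present in 2 of the 7, Dpp4 and Ly6c1, and in 3504 of all promoters. Neither the AP-1 motif TGANTCA, present in 6.87% of all promoters, nor the homeodomain motif TAATTA, present in 4.9%, was found in these windows of the 7. These matches describe letters in a window and say nothing about a factor's binding.

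Among the surface proteins and receptors of adventitial fibroblasts, Scara5 (ENSMUSG00000022032, chromosome 14), a ferritin receptor, differed most. Its normalized counts were 1917, 687, 1101 and 1162 in Zfp750_KO, against 13030.4, 5513 and 5821 in control. The groups lay far apart, and the difference was -2.65 ± 0.35 (SE, adjusted p = 0.00579). Cd34 (ENSMUSG00000016494, chromosome 1), a sialomucin of adventitial cells, endothelium and hair follicle bulge cells, was at 5324, 5096, 2781 and 2811 in Zfp750_KO and at 22577, 8635 and 9414 in control. Control 4F was far above the other 2 controls, which themselves lay above all knockouts, and the difference was -1.57 ± 0.16 (SE). Pi16, a peptidase inhibitor for which the universal fibroblast state is named, had 4099.8, 2492, 3797 and 3452 in Zfp750_KO, against 7538, 8191 and 9220.4 in control. Its call was lost without control 4M or control 7F, although both groups were tight, at 3460.1 ± 697 (SD, n = 4) and 8317 ± 848 (SD, n = 3).

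Ly6a (the stem cell antigen Sca-1) had 3027, 2183, 1925 and 1472 in Zfp750_KO and 5334, 3352 and 3703 in control, a narrow gap. Ly6c1, a related GPI-anchored antigen, had 1166, 891, 645 and 609 in Zfp750_KO and 2794, 1494 and 1546 in control. They fell by 0.89 and 1.13 on the log2 scale, and Ly6a lost its call without 2M, 6F, control 4M or control 7F, one at a time. With the stromal score neither was called. Both, like Cd34, are also made by endothelial cells. The 12 endothelial markers summed to 244 to 461 per M of the library total in Zfp750_KO and to 141 to 272 per M in control. Of the 12, 1 fell, Tek (-1.47, named after its value was seen), and none rose, and the part of endothelial RNA in the result was not tested. Cd248, endosialin, was at 3624, 3480.2, 1682 and 2312 in Zfp750_KO and at 6403, 5175 and 4500.4 in control, a fall of 0.93 that was lost as a call without the same 4 libraries. Dpp4, the surface peptidase CD26, had 865, 1014, 745 and 348 in Zfp750_KO and 1744, 1419 and 2036 in control. Its groups did not overlap either, but its adjusted p was 0.0551, with a difference of -1.24 ± 0.29 (SE).

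Of the proteins that are secreted or lie inside the cell, Clec3b, Sema3c, Mfap5 and Anxa3 fell and Dpt and Gpx3 did not pass. Clec3b, the plasminogen-binding protein tetranectin, was at 871, 371, 949 and 989 in Zfp750_KO and at 4185, 3251 and 2873 in control, with a difference of -2.20 ± 0.32 (SE) whose call was lost without control 4M. Sema3c, a semaphorin that guides axons and vessels, was at 1448, 849, 1153 and 1008 in Zfp750_KO and at 3921, 2992 and 3579 in control. Every control was more than the double of every knockout for both genes, and Sema3c differed by -1.65 ± 0.20 (SE, adjusted p = 0.00402). Mfap5, a protein of elastic microfibrils, had 1347, 919.5, 1001 and 683 in Zfp750_KO and 1744, 2005 and 2120.3 in control, and fell by 1.00 on the log2 scale, a call lost without any 1 of 2M, 3F, 6F, control 4M and control 7F and with the stromal score. Anxa3, an annexin that is intracellular, had 141, 75.3, 375 and 281 in Zfp750_KO and 353, 651 and 845 in control. It overlapped by 1 library on each side, 3F and control 4F, and its difference was -1.73 ± 0.23 (SE).

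Dpt and Gpx3 were the members of the list with the least difference. Dpt, dermatopontin, a matrix protein that binds decorin, was at 9253, 8243, 2374 and 2103 in Zfp750_KO and at 5079, 6275 and 6131 in control. Its knockout libraries thus lay on both sides of all controls, and the difference was -0.29 ± 0.42 (SE, adjusted p = 0.793). Gpx3, a secreted glutathione peroxidase, had 9226, 4103, 2786 and 2029 in Zfp750_KO and 3494, 8245 and 7089.6 in control, a difference of -0.59 ± 0.49 (SE).

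**Figure D2:**
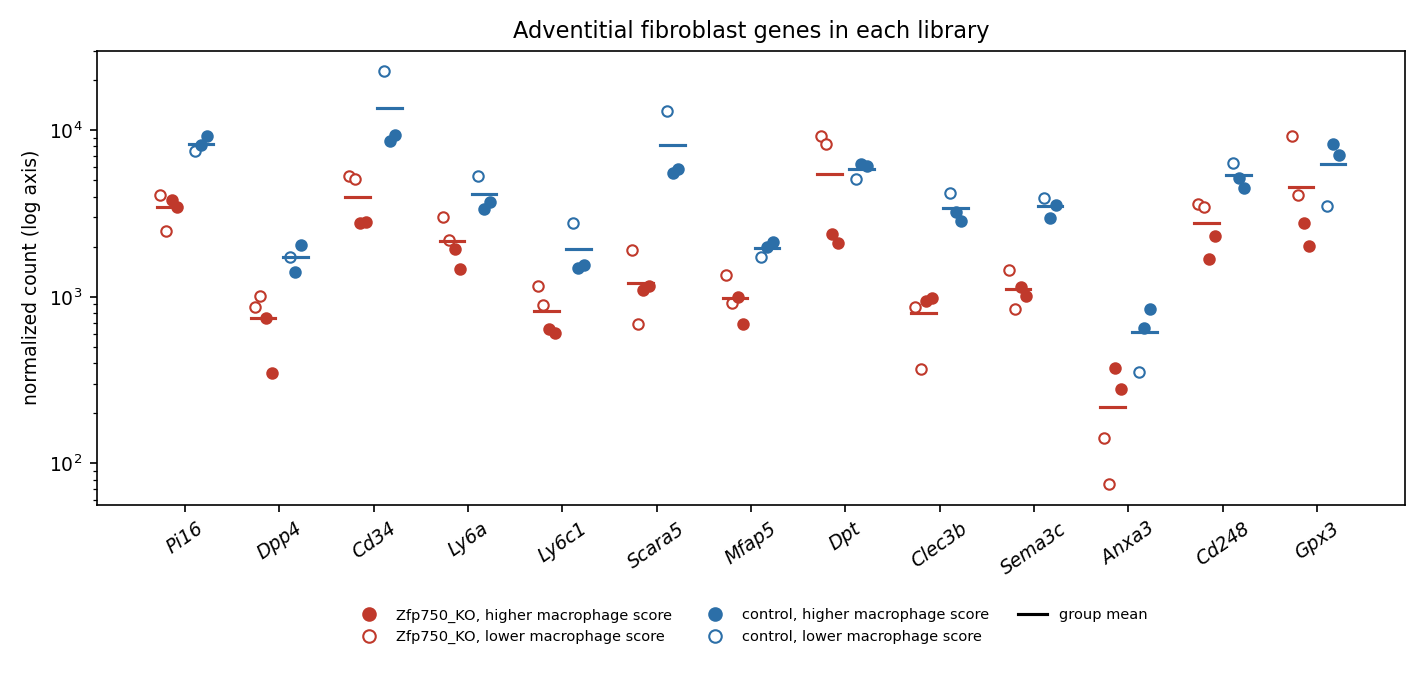
Normalized counts (log y axis) of the 13 adventitial genes in each library, Zfp750_KO in red and control in blue, with group means as bars and open circles for 1M, 2M and control 4F, the libraries with the lower macrophage score. In 10 genes no red point reaches a blue one, whereas Dpt, Gpx3 and Anxa3 overlap.

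How far these genes are low depends on what they are set against. Relative to Pdgfra, the PDGF receptor of all fibroblasts, chosen as a yardstick after its values were seen, 11 of the 13 adventitial genes were lower in every Zfp750_KO library, beside 4.13% of all genes tested (0.755% were higher). On the same measure 6 of the 13 other general fibroblast genes were lower (Dcn, Prrx1, Fbn1, Fbln1, Fstl1 and Ogn), and 18 of 37 members in all. Scara5 stood at 15.7%, 6.17%, 30.6% and 34.4% of Pdgfra in Zfp750_KO, against 244%, 105% and 109% in control. Pi16 stood at 33.5%, 22.4%, 105% and 102% of Pdgfra in Zfp750_KO, against 141%, 156% and 173% in control. Relative to the summed value of the 16 stromal genes, which collagens dominate, none of the 13 separated the groups. The Zfp750_KO mean over the control mean then had a median of 1.22 over the 13, against 0.426 for the deposited values. By group means the genes as a list were thus not low on that measure, and Scara5 had the lowest ratio of the 13, 0.464. These means lean on 3F, the highest library for every gene of the 13 except Scara5. Pi16 stood at 2.26, 1.29, 16.3 and 5.70 per 1000 of that sum in Zfp750_KO and at 2.88, 4.13 and 8.34 in control. Zfp750_KO 1M and 2M lay below every control in all of the 13 but Mfap5, Dpt and Gpx3. On that measure 0.0827% of all genes were lower without overlap and 10.5% higher, and the members that were higher numbered 8: Pdgfra, Twist2, En1, Thy1, Axin2, Trps1, Ntn1 and Lrrc15. Per 1000 of that sum Scara5 was at 1.06, 0.355, 4.71 and 1.92 in Zfp750_KO and at 4.97, 2.78 and 5.27 in control. In 3F the collagen sum was the lowest of all libraries, and there the Scara5 ratio reached the control range. With the stromal score as the covariate in place of the macrophage score, limma called 7 of the 13 lower, while of all genes 2.17% were called, 0.882% lower and 1.28% higher; among the 7 were Scara5 (-2.66), Clec3b (-2.27), Sema3c (-1.65) and Cd34 (-1.51).

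Markers of muscle were lower in Zfp750_KO too. Control 4F was the lowest control for muscle, and also for Pi16, Mfap5, Dpt, Anxa3 and Gpx3. For Scara5, Cd34, Ly6a, Ly6c1, Clec3b, Sema3c and Cd248 it was the highest control, and for Dpp4 it lay between the others. The 9 muscle markers summed to 49.0 to 67.1 per M in Zfp750_KO and to 97.2 to 561 per M in control, without overlap, and 7 of the 9 fell in the second fit. The 5 adipocyte markers found in the table summed to 1.69 to 13.5 per M in Zfp750_KO and to 2.34 to 74.6 per M in control, with overlap and with Adipoq at 0 in some libraries. Myod1 and Myog were at 0 in some libraries too. The part of muscle and fat in the result was not tested.

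A further 25 adventitial genes outside the 38 were counted in the same fit. Like the other related lists, they were chosen with earlier results of these data known, so they are no independent support. All were tested, 10 of the 25 fell and none rose, and 13 were lower in every Zfp750_KO library than in any control. The list's median difference was -0.99. Opcml, a neural adhesion molecule, had 158, 29.9, 166 and 178 in Zfp750_KO and 533, 1101 and 1013 in control. Igfbp6, an IGF-binding protein, had 393, 206, 358 and 339.5 in Zfp750_KO and 1830.2, 1325 and 1357 in control. The proprotein convertase Pcsk6 differed by -2.07 and Wnt2, a Wnt ligand, by -1.86, though Wnt2 overlapped between the groups. Wnt2 lost its call without 2M, control 4M or control 7F and with the stromal score. Without control 4M or without 7F 6 of the 25 were called, and without control 4F 17.

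Of the 14 general fibroblast members 2 fell, none rose and 12 did not pass, with a median of -0.22. In the 4 libraries with the higher score 11 of the 14 were called lower, with a median of -1.18, where the adventitial members had 13 of 13 and -1.47. Dcn, decorin, which binds collagen fibrils, was at 49053, 43841, 10407 and 7169 in Zfp750_KO and at 92231, 21633 and 22526 in control. Control 4F was highest and 6F lowest, and the groups overlapped, with a difference of -0.59 ± 0.29 (SE, adjusted p = 0.333). Fbn1, fibrillin, the core of microfibrils, was at 54487, 45151, 16821 and 21100.5 in Zfp750_KO and at 52547, 50386 and 44702 in control. The 3 controls were alike while 3F and 6F were low, and the adjusted p was 0.434. Pdgfra was nearly constant over the controls (5341, 5237 and 5334) and scattered widely in Zfp750_KO, at 12246, 11133, 3603 and 3373. Its highest control was 1.02 times the lowest, against 3.63 times within Zfp750_KO.

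The other matrix proteins of this group also spread widely in Zfp750_KO. Over the controls Fbln1 and Fstl1 were even, with the highest 1.29 and 1.20 times the lowest, but Lum and Mfap4 were not (3.30 and 4.23 times). Lum, lumican, another fibril-binding proteoglycan, ranged from 3167 to 40347 in Zfp750_KO and from 10572 to 34899 in control. The microfibril protein Mfap4 ranged from 1913 to 16444 in Zfp750_KO and from 4858 to 20555 in control, Fbln1, a fibulin, from 1282 to 3875 in Zfp750_KO and from 3061 to 3942 in control, and the secreted glycoprotein Fstl1 from 8625 to 38949 in Zfp750_KO and from 20545 to 24602 in control. The transcription factors of dermal identity did not pass either. Prrx1 was at -0.25 ± 0.24, En1, which marks the scar-forming dorsal lineage in mice, at -0.09 ± 0.34 and Twist2 at 0.83 ± 0.37 (SE). Twist2 had 1746, 2139, 249 and 347 in Zfp750_KO and 733, 479 and 325 in control; with the stromal score as covariate its adjusted p was 0.0178. Thy1, the surface antigen CD90, which T cells also carry, was at 0.52 ± 0.15 (SE, adjusted p = 0.111).

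Fap and Ogn were the 2 that fell. Fap, a surface serine protease usually linked to activated stroma, was at 216, 195, 515 and 292 in Zfp750_KO and at 571, 1054 and 1188 in control. The lowest values were in 1M and 2M, the libraries with the most Lrrc15, and the difference was -1.72 ± 0.19 (SE, adjusted p = 0.00336). Ogn, osteoglycin, a small proteoglycan, was at 2256, 1205, 1348 and 1010.3 in Zfp750_KO and at 5325, 3588 and 3999 in control, with a difference of -1.56 ± 0.23 (SE) whose call was lost without control 4M or 7F. S100a4, a calcium-binding protein made by leukocytes as well as fibroblasts, went the other way without passing, at 756, 745, 1099 and 1074 in Zfp750_KO and at 934, 441 and 509.5 in control. Its groups overlapped only through control 4F.

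Of the 4 papillary members 1 rose and none fell with the macrophage score, and their median was 0.41. In the 4 libraries with the higher score the median turned to -0.62, with 2 called lower (Apcdd1 at -1.83 and Ntn1 at -0.85) and Trps1 called higher. Apcdd1, a membrane inhibitor of Wnt signals, had 9423, 11359, 405 and 783 in Zfp750_KO and 10631, 1927 and 2156 in control. Its level tracked the split of the libraries more steeply than that of any other member, at -0.84 log2 units per unit of macrophage score, and its difference of -0.18 ± 0.42 (SE) turned positive without 3F, without control 7F or with the stromal score. Ntn1, a netrin guidance cue, had 10951, 12426, 1623 and 2209 in Zfp750_KO and 6413, 3327 and 3498 in control, a difference of 0.36 ± 0.36 (SE) that turned negative without control 4F or with array weights. Axin2, a feedback inhibitor and common readout of Wnt signals, ranged from 142 to 996 in Zfp750_KO and from 198 to 735 in control. Trps1, a GATA-type zinc finger repressor, was the 1 papillary gene that rose. It had 3141, 4627, 4112 and 2789 in Zfp750_KO and 2022, 1397 and 1856 in control, without overlap, and a difference of 1.07 ± 0.21 (SE, adjusted p = 0.0268). The call was lost without 2M, 3F, control 4M or control 7F and with the stromal score, and per Pdgfra value the groups overlapped. Of 15 further papillary genes tested of 16, Nkd2, a Wnt feedback inhibitor, rose by 1.34, none fell, and the median was 0.77. In the 4 libraries with the higher score that median turned to -0.31, and Nkd2 lost its call in 10 of 17 alternatives. These were the fits without any 1 of 1M, 2M, 6F, control 4M and control 7F, a pseudocount of 0.25 per M, a filter of 5 per M, equal upper quartiles, robust moderation and the stromal score.

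All 5 reticular members had negative differences, from -1.62 to -0.12 with a median of -1.09, and 2 of them fell. Gsn, gelsolin, which severs actin filaments and is made by many cell types, was at 23277, 10059, 17949 and 19062 in Zfp750_KO, against 55348, 50196 and 48710.1 in control. The controls lay within 1.14 times of each other and all stood above the double of every knockout, with a difference of -1.62 ± 0.32 (SE, adjusted p = 0.0293). This call was lost without any 1 of 2M, 3F, 6F, control 4M and control 7F. Mest, an imprinted gene of mesoderm, had 119.9, 55.0, 103 and 173 in Zfp750_KO and 192, 463 and 330.4 in control. It fell by 1.54 on the log2 scale, with its highest knockout close to control 4F. Its call was lost without 2M, control 4M or control 7F and with the stromal score. Cygb, cytoglobin, a haem protein, had 935, 302, 1169 and 924 in Zfp750_KO and 653, 2119.9 and 2216 in control, and did not pass (adjusted p = 0.0972). Mgp, the matrix Gla protein, which inhibits calcification, ranged from 118 to 1033 in Zfp750_KO and from 441 to 851 in control. Dlk1, an imprinted Notch-related protein of fat precursors, was low throughout, from 6.76 to 64.2 in Zfp750_KO and from 8.52 to 61.7 in control. Of 14 other reticular genes 3 fell and none rose, with a median of -0.27. Itm2a, a membrane protein of mesenchyme, differed by -1.49, Fmo2, a flavin monooxygenase, by -1.20 and the lipase Lpl by -1.01. Fmo2 and Lpl lost their calls without any 1 of 2M, 3F, 6F, control 4M and control 7F and with the stromal score. Lpl lost its call also without 1M, with a pseudocount of 0.25 per M and with a filter of 5 per M.

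Since Mest and Dlk1 are imprinted, 15 further imprinted growth genes were counted. Of these 3 fell and none rose, and the median was -0.51. H19, an imprinted non-coding RNA, had 294, 168, 309 and 309 in Zfp750_KO and 512, 2576 and 1966 in control, and lost its call with the stromal score. Plagl1, a zinc finger regulator of other imprinted genes, was even within groups, at 584, 579.5, 606 and 579 in Zfp750_KO and at 1248, 1514 and 1201 in control. Its difference was -1.15 ± 0.14 (SE, adjusted p = 0.00400). Rian, a non-coding RNA of the Dlk1 locus, differed by -1.31. Its call was lost without 1M, 3F, 6F, control 4M or control 7F, one at a time, and with the stromal score.

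Lrrc15 (ENSMUSG00000052316, chromosome 16), a membrane protein that TGF-beta induces in activated fibroblasts, had the largest difference of the 38. It stood at 27540.3, 26652, 1118 and 1501 in Zfp750_KO, against 1543, 480.5 and 449 in control. Within the libraries of lower macrophage score, 1M and 2M were far above control 4F, and within the others 3F and 6F were above 4M and 7F, yet control 4F overlapped with 3F and 6F. The difference was 3.41 ± 0.53 (SE, adjusted p = 0.0111), and it was 1.46 ± 0.19 in the 4 libraries with the higher score (adjusted p = 0.000839). Whether the size differs between libraries of low and high score was not tested. Within Zfp750_KO that split is also the split by sex. Per Pdgfra value Lrrc15 no longer overlapped, at 225%, 239%, 31.0% and 44.5% in Zfp750_KO and at 28.9%, 9.18% and 8.41% in control.

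Of 15 other genes of activated fibroblasts tested of 16, 6 rose, none fell and 9 did not pass, and 1 was higher without overlap. All 15 differences were positive, with a median of 2.00. Grem1, a BMP antagonist, had 9565, 7035, 83.4 and 125 in Zfp750_KO and 457, 34.1 and 61.9 in control. Tagln, a contractile protein, had 2375, 2218, 321 and 409 in Zfp750_KO and 799, 123 and 93.3 in control. The kinesin Kif26b differed by 2.88 and the matricellular protein Ccn4 by 2.00. Ccn4 lost its call without any 1 of 1M, 2M, 6F, control 4M and control 7F, Grem1 without 2M or control 4M, and Kif26b without control 4M. Ccn4 and Grem1 also lost theirs with robust moderation. In each of these 4 genes 1M and 2M were the highest libraries. Without control 4M, 2 of the 15 passed. In the 4 libraries with the higher score 5 were called higher and 3 lower (Aspn, Postn and Lox, named after their values were seen), 7 of the 15 differences were negative, and the median was 0.44. The 10 mural markers, which share contractile genes with this list, summed to 455 to 1748 per M in Zfp750_KO and to 601 to 959.5 per M in control, with overlap. Of these 10, 3 rose and none fell in the second fit, beside 1.34% of all genes that rose. The part of mural RNA in the result was not tested.

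**Figure D3:**
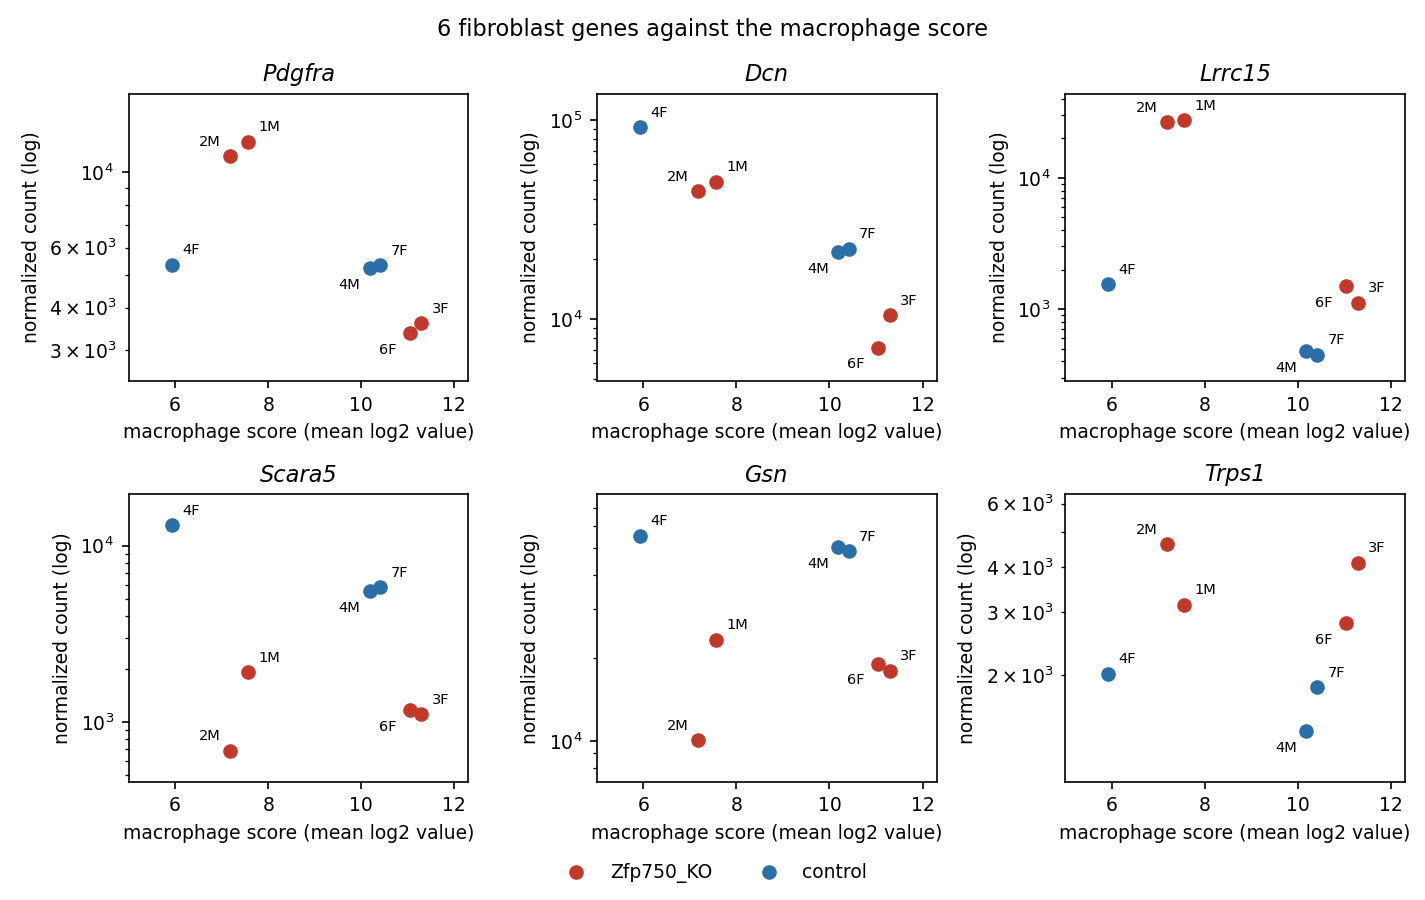
Normalized counts (log y axis) of 6 fibroblast genes against the macrophage score of each library (x axis), Zfp750_KO in red and control in blue. Scara5 and Gsn separate the groups over all libraries, Trps1 separates them in the other direction, and Lrrc15 is highest in 1M and 2M. Dcn falls with the score and overlaps over all libraries, though its knockouts lie below the controls of similar score.

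Corin, a serine protease of the dermal papilla, was at 568, 506, 172 and 195 in Zfp750_KO and at 732, 165 and 188 in control. Low and high libraries were found in both groups, and the difference was 0.32 ± 0.16 (SE, adjusted p = 0.366). Of 16 further genes of the papilla and sheath tested of 17, Itga8, an integrin of the dermal sheath, rose by 1.10 and the ligand Bmp4 fell by 0.84, and 14 did not pass. Both calls were lost without 1M, 2M, control 4M or control 7F and with the stromal score, Itga8 also without 3F and Bmp4 also without 6F.

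The roles can also be set side by side by their slope on the macrophage score. The median slope was -0.12 log2 units per unit of score for the adventitial genes, -0.31 for the general, -0.49 for the papillary and 0.20 for the reticular genes, beside -0.01 over all genes. Dcn and Lum had slopes of -0.55 and -0.64, outside the range of the adventitial genes, -0.26 for Cd34 to 0.34 for Anxa3. These slopes are descriptions over 7 libraries that share the score.

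**Figure D4:**
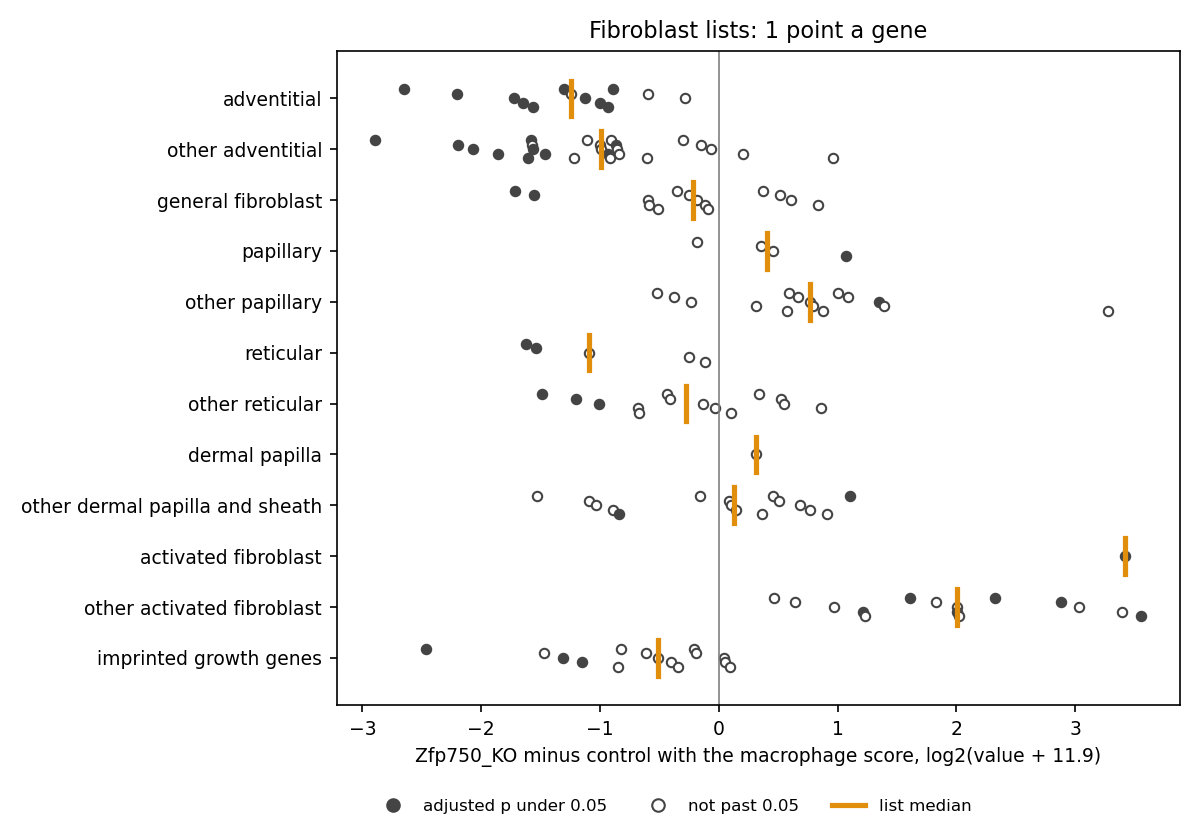
Difference between Zfp750_KO and control with the macrophage score (x axis, log2(value + 11.9)) for every tested gene of the 12 lists, 1 circle a gene, filled where the adjusted p is under 0.05, with the list median as a bar. The medians of the adventitial lists are -1.24 and -0.99, and those of the reticular lists are -1.09 and -0.27. Those of the papillary lists lie right of 0 (both lie left of 0 in the 4 libraries with the higher score), and all tested genes of the activated lists lie right of 0.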

How the data were processed

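The authors deposited 1 table of normalized counts per gene, a signal rather than raw counts, for 4 Zfp750_KO and 3 control libraries. Per the submitters' processing notes, TopHat2 2.1.0 and Partek 9.0.20.0202 were used, with no role stated. The sources used here do not give the genome build, the strand setting or the scaling method. Tested on the deposited signal, 77.9% to 79.4% of the values below 200 reads came out whole per library (tolerance 0.02 reads), so whole reads were not recovered and no count test was run. The deposited length column (other) is a genomic span and was not used as a gene length. Columns state the group but match no sample title, so no replicate numbers were assigned.

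Tested were the 18141 genes that reached 1 per M of the column total in 3 or more libraries, as log2(value + 11.9). The pseudocount equals 1 per M of the median column total. limma 3.58.1 in R 4.3.3 was used (lmFit, eBayes with trend, Benjamini-Hochberg over all genes, two-sided), with the group alone (5 residual degrees of freedom) and with the macrophage score (4). Called means an adjusted p under 0.05. Members, lists and the second fit were chosen with earlier results of these data known. Per-library values are given for members past the threshold or without overlap and for the 2 with the highest mean of each role; of each related list at most 4 called genes with the largest difference are named. Alternatives changed the pseudocount, the filter, the scaling or the moderation, weighted the arrays, added a term for the letter M or F, used a stromal score, or left out each library. Precision is limited by the number of libraries.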

Additional observations from a re-analysis of the deposited data

How the results depend on the processing

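With the group alone, limma called no member and no related gene in any of the other settings except 3. Array weights called 22 members and 62 related genes, the stromal score 12 and 21, and the 4 libraries with the higher macrophage score, added after seeing the data, 32 and 47. Without any 1 library the counts stayed at 0. Array weights called 20.9% of all genes, so its counts are to be read beside that share; the cause was not tested.

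With the macrophage score, 16 members were called and 12 to 19 under the 10 alternatives that keep all libraries; 6 of the 16 kept the call in all 17 alternatives, namely Fap, Cd34, Scara5, Sema3c, Anxa3 and Lrrc15. Leaving out 1 library gave 7 to 27 members, 5 to 13 adventitial members, 11 to 45 related genes, 6 to 17 other adventitial genes and 2 to 8 other activated fibroblast genes; the lowest counts came without control 4M (for other adventitial genes also without 7F) and the highest without control 4F, where 0.827% and 8.65% of all genes were called. Array weights gave 41 related and 18 other adventitial genes, and the term for the letter M or F gave 41 and 16, beside 6.71% and 6.96% of all genes, against 3.46% in the fit as reported. Of the 42 named genes 2 changed sign, neither of them called: Ntn1 was at -0.016 with array weights and at -0.25 to 0.65 without 1 library, and Apcdd1 was at 0.16 with the stromal score and at -0.88 to 0.20 without 1 library.

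Groups did not overlap in 15 members, beside 7.1% of all genes, and in 15 to 19 members without 1 library. The share of all genes was not computed without 1 library. Groups separate more easily with fewer libraries, so the 15 to 19 do not show how stable the count is. With the 4 libraries alone 34 members did not overlap, where 29.4% of all genes were higher and 25.2% lower without overlap. No scaling moved the median of all genes by more than 0.1. No paired analysis was possible because the columns carry no replicate numbers of the labels.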
